A study of Mus musculus with 4 samples.

Results

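The transcripts described here are 121 gene models of 75 mouse genes that GENCODE M21 types as long non-coding RNA (lncRNA) genes, measured in primary hepatocytes, the cells that carry out most of the liver's metabolism. They were chosen by annotation and by level: the gene is typed processed_transcript (103 models of 61 genes) or bidirectional_promoter_lncRNA (18 models of 14 genes) in GENCODE M21, and the model averages at least 1 FPKM over the 4 samples. FPKM are fragments scaled to transcript length and library size. RefSeq types 51 of the 75 genes as lncRNA, 6 as protein-coding (Tmem134, Cct6a, Ifi30, Spata5l1, Gm12940 and Gm15832) and C4a as a transcribed pseudogene, and 17 had no entry. A set of 16 well-known genes was left out by name, 8 of which had 34 models of these types at that level. The 121 models come from 2399 models of 957 genes of the same types, and from 37363 models in the whole data set, of which 6064 of 3658 genes reach 1 FPKM. The level was averaged over both groups, so it is a criterion and not a finding. A model that reached 1 FPKM only through its higher group had to differ: 90 members averaged at least 1 FPKM in both groups, 9 only in NEAA and 22 only in control.

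A processed transcript is a spliced or unspliced RNA of a locus that has no annotated open reading frame and was put in no narrower class. The class therefore mixes host genes of small nucleolar RNAs (snoRNAs, the guides of ribosomal RNA modification, which are cut from introns), antisense RNAs and non-coding relatives of coding genes. A bidirectional-promoter lncRNA starts next to a protein-coding gene and is transcribed away from it, and such shared start regions are typically rich in CG pairs. Spliced snoRNA host RNAs are often degraded in the cytoplasm once ribosomes read them, and their start sites often carry a run of pyrimidines.

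The groups were primary mouse hepatocytes given NEAA, non-essential amino acids (2 samples), and control hepatocytes (2 samples). The study's title concerns proline, hepatic glucose production and the retention of mRNA in paraspeckles, nuclear bodies built on an lncRNA. Not given in the sources used here are the dose, composition and duration of NEAA. Nor is it stated whether samples came from separate cultures or animals, so each p-value rests on the spread among these 4 samples and that spread may be technical. FPKM keep no read counts, so depth is unknown. In these bulk samples fewer cells of a type and less RNA per cell cannot be told apart.

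FPKM summed over all models to 65718.5 and 60942 in the NEAA samples and to 73600.1 and 73376.5 in the control samples. The lincRNA pair Gm26917 and Gm42418 held 49.4% and 46.1% of that sum in NEAA samples, and 52.9% and 50.4% in control samples. Of 14 hepatocyte markers, 4 had a row in the files, and most of their sum was Cp, the copper carrier ceruloplasmin, at 864.1 and 877.4 FPKM in NEAA samples and 414.4 and 456.9 FPKM in control samples. Trf, transferrin, had 57.1 and 55.8 FPKM in NEAA samples and 22.5 and 28.1 FPKM in control samples, while Ass1 and Cyp2e1 stayed at or below 3.19 and 0.153 FPKM in every sample. Markers of macrophages, endothelial cells, stellate cells or fibroblasts, cholangiocytes and red blood cells summed to at most 1.69 FPKM per list in any sample, and no model of theirs averaged 1 FPKM. The part of these sums in the results below was not tested. The members together summed to 346.6 and 369.4 FPKM in NEAA samples, below both control samples at 451.2 and 430.8 FPKM.

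With NEAA, 2 processed transcripts rose and 2 fell. Each test was limma on log2(FPKM + 1), with p-values adjusted over all 6064 models and a call at an adjusted p under 0.05. The 4 calls among 121 members stand beside 2.9% of all models called. By direction, the share of all models was 1.95% called higher and 0.956% called lower, against 2 and 2 members.

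Gm43305 (ENSMUSG00000105703), an uncharacterised lncRNA of chromosome 14, 54292443 to 54297456 on the minus strand, had 9.04 and 10.4 FPKM in NEAA samples and 1.16 and 0.969 FPKM in control samples for model 1. Its groups lay far apart, with a log2 fold change of 2.37 ± 0.14 (SE) and an adjusted p of 0.0249 by limma. The nearest protein-coding genes were Olfr49, an odorant receptor gene 7504 bases away, and Oxa1l, a mitochondrial membrane insertion factor 63378 bases away.

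Gm20634 (ENSMUSG00000070392; chromosome 3, 96245554 to 96248509, plus strand) had 11.7 and 11.9 FPKM in NEAA samples and 2.24 and 2.16 FPKM in control samples. The change was 1.999 ± 0.13 (SE) on the log2 scale, with an adjusted p of 0.0249 by limma. This single-exon RNA lies in a histone cluster on the same strand as Hist2h3c1 and Hist2h2aa1, core histone genes. All 1825 exonic bases of Hist2h3c1 and 529 exonic bases of Hist2h2aa1 lie inside it, the first being 61.7% of the exonic length of Gm20634. Reads of the histone genes and of Gm20634 therefore cannot be told apart there. Neither histone gene was among the listed models, so their levels are unknown here.

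AC121821.1 (ENSMUSG00000117869) contains Snora74a, an H/ACA-type snoRNA, and lies 3822 bases before Matr3, which encodes a nuclear matrix RNA-binding protein. Its model 3 had 2.06 and 1.79 FPKM in NEAA samples and 5.36 and 5.57 FPKM in control samples, a fall of 1.15 on the log2 scale (SE 0.13, limma adjusted p = 0.0395). D330041H03Rik (ENSMUSG00000073437; chromosome 17, 24404649 to 24414542, minus strand) had 0.455 and 0.371 FPKM in NEAA samples and 2.07 and 1.93 FPKM in control samples for model 2. It fell by 1.09 on the log2 scale (SE 0.12, limma adjusted p = 0.0408), and it reached 1 FPKM only in control. Limma called 0 models when any 1 of the 4 samples was left out, with 1070 to 1258 models at an unadjusted p under 0.05, so with 3 samples a call could not be judged for any member. The log2 differences then ranged from 2.28 to 2.46 for Gm43305, from 1.98 to 2.02 for Gm20634, from -1.21 to -1.08 for AC121821.1 model 3 and from -1.13 to -1.04 for D330041H03Rik model 2. With sample sums set to a much larger fixed total, which also lowers the weight of the pseudocount, AC121821.1 model 3 and D330041H03Rik model 2 differed by -1.26 and -1.91 and missed the threshold (limma adjusted p of 0.0583 and 0.0665). With sums equalized at their mean, both were called, at -0.98 and -0.99. Model 1 of D330041H03Rik had 0.487 and 0.225 FPKM in NEAA samples and 1.70 and 1.64 FPKM in control samples (-0.98, limma adjusted p = 0.0655), and models 5 and 6 of AC121821.1 differed by -1.12 and -0.92, without overlap. Its model 2 had 0.398 and 0.448 FPKM in NEAA samples and an uneven 0.767 and 7.27 FPKM in control samples (-1.43 ± 0.80 SE, limma adjusted p = 0.339), and its model 1 differed by -0.44 ± 0.21 (SE). Model 2 of AC121821.1 and models 1 and 2 of D330041H03Rik averaged under 1 FPKM in NEAA, so they had to differ.

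**Figure D1:**
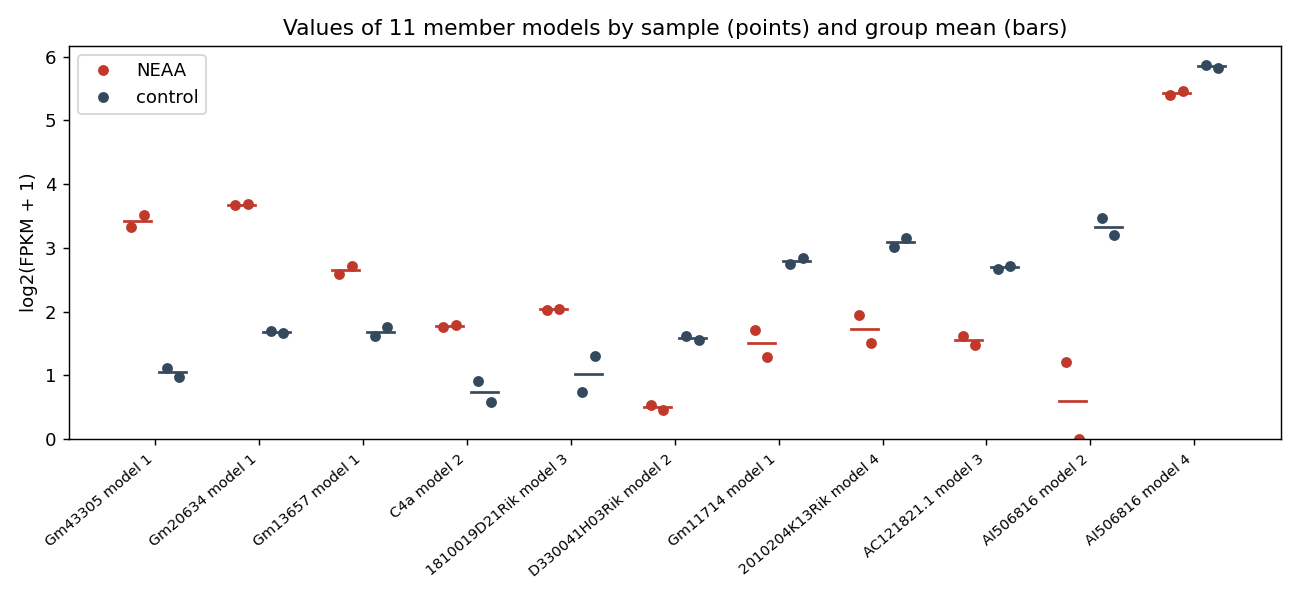
Values of 11 member models, as log2(FPKM + 1), in each NEAA sample (red, left) and each control sample (dark, right), with a bar at the group mean. The groups do not overlap for any model shown, and Gm43305 and Gm20634 stand farthest above control, while model 2 of AI506816 stands farthest below, with 1 NEAA sample at 0. Model 2 of C4a, of D330041H03Rik and of AI506816 averaged 1 FPKM in only 1 group, so these had to differ.

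Beyond the called models, the processed transcripts with the largest positive differences included Gm13657, an intergenic lncRNA between Nfe2l2, the oxidative stress regulator NRF2, and Agps, an enzyme of ether lipid synthesis. It had 5.03 and 5.54 FPKM in NEAA samples and 2.08 and 2.36 FPKM in control samples (0.96 on the log2 scale, limma adjusted p = 0.0538). Model 2 of C4a, which RefSeq types as a transcribed pseudogene related to complement component C4, had 2.38 and 2.47 FPKM in NEAA samples and 0.880 and 0.491 FPKM in control samples (1.03, adjusted p = 0.0628 by limma). C4a is a near copy of another complement gene, so the split of reads between them is uncertain. Model 3 of 1810019D21Rik, antisense to Esrp2, an epithelial splicing regulator, had 3.09 and 3.11 FPKM in NEAA samples and 0.664 and 1.48 FPKM in control samples. In each of these, both NEAA samples lay above both control samples. Model 2 of C4a averaged under 1 FPKM in control and passed the level filter through NEAA alone, so it had to differ.

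Gm20412 had 7.48 and 10.01 FPKM in NEAA samples and 4.59 and 5.19 FPKM in control samples (0.72 ± 0.19 SE on the log2 scale). All 633 of its exonic bases are also exonic in Tgm2, which encodes a protein cross-linking transglutaminase, on the other strand. Model 1 of Tgm2 had 4.53 and 3.74 FPKM in NEAA samples and 1.54 and 1.74 FPKM in control samples, a difference of 0.96 (limma adjusted p = 0.0594). Both RNAs were thus higher in both NEAA samples, and without a stated strand setting their reads cannot be told apart. Gm15344, whose exons share 84 bases with Hsp90b1, an endoplasmic reticulum chaperone gene, had 1.28 and 1.77 FPKM in NEAA samples and 0.696 and 0.568 FPKM in control samples. Models 2 and 3 of Hsp90b1 differed in the same direction, by 0.41 and 0.49 on the log2 scale. Gm15344 and model 2 of Hsp90b1 averaged under 1 FPKM in control and passed the level filter through NEAA alone, so they had to differ. Only 4 of 14 hepatocyte markers were listed at all, so the models of a protein-coding gene may not hold all of its RNA.

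The most negative difference of a member was that of AI506816 model 2, with 1.30 and 0 FPKM in NEAA samples and 9.999 and 8.23 FPKM in control samples (-2.73 ± 0.45 SE, limma adjusted p = 0.0669). Model 4 of the same gene was the most abundant member, at 41.0 and 42.9 FPKM in NEAA samples and 57.6 and 55.4 FPKM in control samples, a difference of -0.42. The 2 models differed in the same direction by very unequal amounts. Model 2 averaged under 1 FPKM in NEAA and passed the level filter through control alone, so it had to differ. 2010204K13Rik, an X-linked lncRNA, had 2.87 and 1.84 FPKM in NEAA samples and 7.05 and 7.94 FPKM in control samples for model 4 (-1.36, limma adjusted p = 0.0598). Gm11714, which lies across from Pitpnc1, a phosphatidylinositol transfer protein gene, without sharing exonic bases, had 2.28 and 1.45 FPKM in NEAA samples and 5.71 and 6.20 FPKM in control samples (-1.29, limma adjusted p = 0.0589). Model 1 of Pitpnc1 differed by only -0.13 on the log2 scale.

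Promoter windows are shown for the gene with the largest rise and for a contrasting gene with almost no CG pairs. A RefSeq window of 300 bases, most of it before the start and 50 bases after it (GRCm38.p6), was found within 1000 bases of the annotated start for 43 of the 75 member genes. Capitals mark each CG pair. Gm43305 is at chr14:54297439-54297738 and Gm20559 at chr6:3346089-3346388, both on the minus strand.
Gm43305: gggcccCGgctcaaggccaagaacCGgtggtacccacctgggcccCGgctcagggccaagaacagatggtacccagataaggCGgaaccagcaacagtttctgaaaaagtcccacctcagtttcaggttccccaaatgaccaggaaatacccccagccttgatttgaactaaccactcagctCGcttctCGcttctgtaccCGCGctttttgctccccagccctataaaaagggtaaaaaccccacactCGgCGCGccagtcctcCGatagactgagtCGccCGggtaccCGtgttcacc
Gm20559: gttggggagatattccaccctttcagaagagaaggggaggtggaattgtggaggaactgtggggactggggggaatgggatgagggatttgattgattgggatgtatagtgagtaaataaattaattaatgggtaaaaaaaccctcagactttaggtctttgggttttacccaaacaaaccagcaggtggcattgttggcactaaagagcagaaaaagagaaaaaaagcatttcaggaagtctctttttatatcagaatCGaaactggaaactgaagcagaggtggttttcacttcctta
The first window holds 15 CG pairs and the second holds 1. Gm20559 had 5 member models, 4 of them positive, and in models 2, 3 and 4 both NEAA samples lay above both control samples. Model 4, the most abundant, had 7.42 and 7.23 FPKM in NEAA samples and 5.76 and 5.14 FPKM in control samples (0.37 ± 0.14 SE). Model 3 had 2.72 and 1.92 FPKM in NEAA samples and 1.26 and 1.14 FPKM in control samples, a log2 difference of 0.58 ± 0.17 (SE).

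Both NEAA values lay below both control values in 55 of the 121 members and above them in 23, beside 36.0% and 22.8% of all 6064 models. The median log2 difference was -0.23 for the 103 processed-transcript models and -0.09 for the 18 bidirectional-promoter models, beside -0.09 for all models. It was -0.04 for 170 lincRNA models, -0.05 for 80 antisense models and -0.49 for the 34 models of the genes left out by name. Of those 34 models, 64.7% had both NEAA values below both control values and 5.88% had both above. At an unadjusted p under 0.05, limma gave 42 members, 11 higher and 31 lower, beside 25.9% of all models. Of all 6064 models, 640 were higher and 929 lower at that level. The median of all models ranged from -0.14 to 0.07 over the scalings and pseudocounts tried at this level filter. Both class medians also moved with the setting. The bidirectional median was 0.06 with sums rescaled to a fixed total and 0.04 with sums equalized at their mean. The processed-transcript median ranged from -0.33 to -0.08 and lay below the median of all models in each of these settings.

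**Figure D2:**
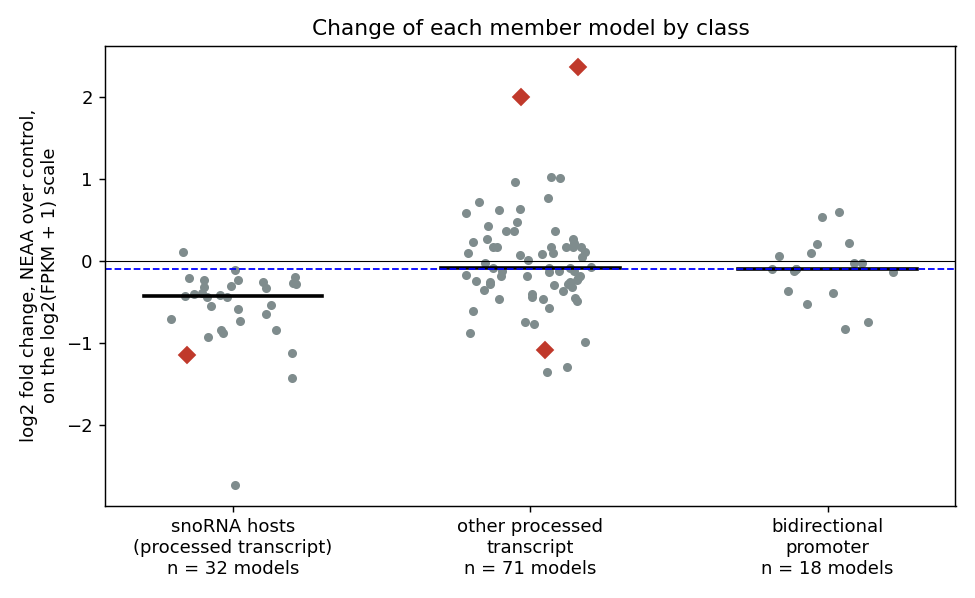
Log2 fold change of each member model, NEAA over control on the log2(FPKM + 1) scale, in 3 classes, with called models as red diamonds, class medians as black bars and the median of all 6064 models as a dashed line. The snoRNA hosts sit almost entirely below 0, with a median of -0.43, while the other processed transcripts lie around the median of all models. In each class some models averaged 1 FPKM in only 1 group, so they had to differ.

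Of the 48 processed-transcript models with both NEAA values below both control values, 26 belonged to snoRNA hosts. In GENCODE, 10 member genes contain a snoRNA on their own strand. Of their 32 models, 31 had negative differences, beside 58.9% of all 6064 models. The NEAA samples lay below both control samples in 26 of these 32 models and above them in 0. Some host models averaged under 1 FPKM in NEAA and passed the level filter through control alone, so they had to be lower. They were model 2 of AI506816, model 2 of AC121821.1, model 13 of 1810032O08Rik, model 6 of 1110038B12Rik and Snhg14. The hosts' median log2 difference was -0.43, ranging from -0.27 to -0.60 over the settings, against -0.08 for the 71 processed-transcript models that host none. Model 3 of AC121821.1 was the only host model called. By limma, 17 host models had an unadjusted p under 0.05, all lower, beside 929 lower of all 6064 models. The host direction was already known from earlier work on these data and is not independent support. No test between the classes was made, and several models share a gene.

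Snhg3, host of Snora73a and Snora73b, which act in ribosomal RNA processing, had 7.94 and 5.33 FPKM in NEAA samples and 11.9 and 13.02 FPKM in control samples for model 3 (-0.84 ± 0.22 SE). Its model 2 had 6.23 and 5.88 FPKM in NEAA samples and 6.16 and 7.14 FPKM in control samples, so these groups overlapped. Snhg15, host of Snora9, had 3.23 and 3.70 FPKM in NEAA samples and 5.41 and 4.73 FPKM in control samples for model 3 (-0.44). Snhg17 had 1.74 and 1.87 FPKM in NEAA samples and 3.28 and 3.14 FPKM in control samples for model 5 (-0.59, limma adjusted p = 0.0832), and its other 2 member models were lower too, by -0.40 and -0.33.

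1810032O08Rik, named Snhg16 in RefSeq and host of Snord1a, Snord1b and Snord1c, had 1.37 and 2.03 FPKM in NEAA samples and 3.27 and 3.65 FPKM in control samples for model 6 (-0.73). 1110038B12Rik, host of Snord52, had 8 member models, of which 7 were negative, and the exception, model 1, was the only host model with a positive difference, at 0.11 ± 0.27 (SE). Cct6a, a gene of the cytosolic chaperonin that RefSeq types as protein-coding, contains Snora15. It had 8.99 and 13.004 FPKM in NEAA samples and 19.4 and 21.1 FPKM in control samples for model 1 (-0.84), and for model 3 it had 5.98 and 9.91 FPKM in NEAA samples and 14.7 and 15.3 FPKM in control samples (-0.87). Cct6a starts 451 bases from Psph, which catalyses the last step of serine synthesis and had no model at 1 FPKM. Snhg14, an imprinted RNA with 208 annotated snoRNAs that runs across from Ube3a, a ubiquitin ligase gene, had 1.00 and 0.795 FPKM in NEAA samples and 1.08 and 1.28 FPKM in control samples (-0.20 ± 0.14 SE). The 3 tested Ube3a models had differences of -0.12, 0.32 and -0.18, none called. Snhg14 averaged under 1 FPKM in NEAA, so it had to differ. Gm15832, host of Snord89 inside Rnf149, had 1.12 and 1.27 FPKM in NEAA samples and 1.61 and 1.67 FPKM in control samples (-0.27). In AI506816, described above, the hosted RNA is named Mir3096 but typed snoRNA.

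**Figure D3:**
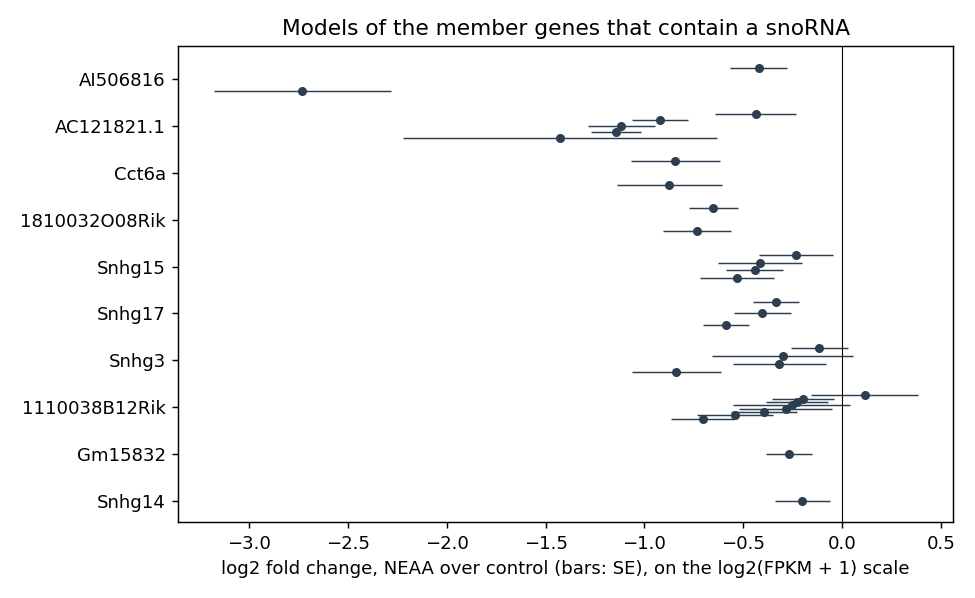
Log2 fold change of every member model of the 10 snoRNA host genes, NEAA over control on the log2(FPKM + 1) scale, with bars of 1 SE. All models but 1 of 1110038B12Rik lie left of 0, and AI506816 model 2, at -2.73, lies farthest left. That model, model 2 of AC121821.1, model 13 of 1810032O08Rik, model 6 of 1110038B12Rik and Snhg14 averaged 1 FPKM only in control, so they had to be lower.

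The starts of snoRNA hosts are shown for a pyrimidine run, here a C followed by at least 5 more C or T that begins between 5 bases before and 15 bases after the start, with the run in capitals. Each line gives 20 bases before and 30 from the RefSeq start (GRCm38.p6), on the minus strand at chr17:34952442-34952491 for 1110038B12Rik and chr5:23712638-23712687 for AI506816, and on the plus strand at chr11:116671640-116671689 for 1810032O08Rik.
1110038B12Rik: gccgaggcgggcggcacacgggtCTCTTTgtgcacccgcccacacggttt
AI506816: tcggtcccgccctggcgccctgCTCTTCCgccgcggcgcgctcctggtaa
1810032O08Rik: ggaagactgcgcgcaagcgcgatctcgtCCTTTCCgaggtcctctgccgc
These 3 of 7 host windows held such a run on the transcribed strand, as did 9 of 43 member windows (20.9%) and 16.7% of all 27025 promoter windows. CACGTG, the same on both strands, occurred in 5 of 43 member windows (11.6%) and 7.24% of all. TGATGNAA, on either strand, occurred in 1 of 43 (2.33%) and 4.06% of all. These matches describe the letters only.

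No bidirectional-promoter lncRNA model was called by limma. At an unadjusted p under 0.05 there were 4 of the 18, 1 higher and 3 lower, beside 25.9% of all 6064 models. The most abundant, 4632427E13Rik, starts next to Rab30, a Golgi GTPase gene, and had 7.40 and 7.53 FPKM in NEAA samples and 6.33 and 6.33 FPKM in control samples (0.21 ± 0.13 SE). D430020J02Rik had 1.38 and 1.69 FPKM in NEAA samples and 0.601 and 0.738 FPKM in control samples (0.60 ± 0.14 SE, limma adjusted p = 0.104). It starts 192 bases from Ncapg2, a condensin II subunit gene of chromosome condensation. Model 1 of Ncapg2 had 8.32 and 7.91 FPKM in NEAA samples and 3.25 and 2.35 FPKM in control samples (1.27, limma adjusted p = 0.0532). Both RNAs of the pair were higher in both NEAA samples, without either passing the test. D430020J02Rik averaged under 1 FPKM in control and passed the level filter through NEAA alone, so it had to differ.

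F730043M19Rik, which starts 96 bases from Atxn7l1, was the lowest relative to control: model 4 had 0.664 and 1.01 FPKM in NEAA samples and 2.18 and 2.31 FPKM in control samples (-0.83 ± 0.15 SE, limma adjusted p = 0.0738). Its model 5 had 2.43 and 2.25 FPKM in NEAA samples and 3.90 and 3.69 FPKM in control samples (-0.52). AC133451.1, next to Smndc1, a splicing factor gene, had 0.932 and 1.11 FPKM in NEAA samples and 1.63 and 1.66 FPKM in control samples (-0.39). Gm36371, next to Zfp787, had 0.612 and 0.958 FPKM in NEAA samples and 1.39 and 1.19 FPKM in control samples (-0.36). In all 4 of these models the groups did not overlap. F730043M19Rik model 4 and Gm36371 averaged under 1 FPKM in NEAA and passed the level filter through control alone, so they had to differ.

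1700007L15Rik, next to the zinc finger gene Zfp148, had models of opposite sign, with 0.109 and 1.20 FPKM in NEAA samples and 1.49 and 1.73 FPKM in control samples for model 1 (-0.74), and for model 2, 2.73 and 1.95 FPKM in NEAA samples and 1.86 and 0.806 FPKM in control samples (0.54). Its model 1 averaged under 1 FPKM in NEAA, so it had to differ. Gm16675, next to Irf2, an interferon regulatory factor gene, had 1.52 and 1.54 FPKM in NEAA samples and 1.27 and 1.07 FPKM in control samples (0.22 ± 0.12 SE). The rest differed by -0.13 to 0.10 on the log2 scale. They were the 3 models of B230354K17Rik (next to the splicing factor gene Cdc5l), 2810013P06Rik (Ankrd11), 4933412E12Rik, 9330151L19Rik, Gm26549, AV356131 (Pik3c2a) and Gm20684 (Pcsk6, a proprotein convertase). B230354K17Rik model 1 varied most within groups, with 2.22 and 0.817 FPKM in NEAA samples and 3.98 and 0.205 FPKM in control samples.

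**Figure D4:**
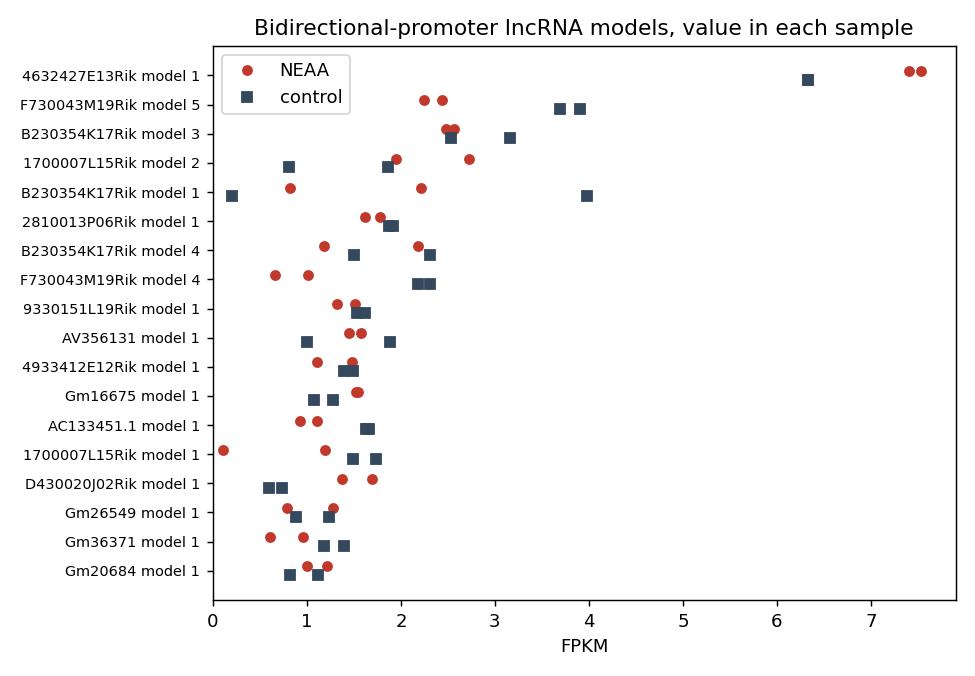
FPKM of the 18 bidirectional-promoter models in each NEAA sample (circles, upper of each pair of rows) and each control sample (squares, lower), ordered by mean. Most lie between 1 and 3 FPKM with the groups close together, while both models of F730043M19Rik lie lower and D430020J02Rik higher in the NEAA samples without overlap. D430020J02Rik and Gm20684 averaged 1 FPKM only in NEAA. Model 4 of F730043M19Rik, model 1 of 1700007L15Rik and Gm36371 did so only in control. All of these had to differ.

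The windows of D430020J02Rik and F730043M19Rik, the genes with the highest and lowest differences among the bidirectional-promoter lncRNAs, are shown, again with each CG pair in capitals (GRCm38.p6, minus strand). D430020J02Rik is at chr12:116405112-116405411 and F730043M19Rik at chr12:33147537-33147836.
D430020J02Rik: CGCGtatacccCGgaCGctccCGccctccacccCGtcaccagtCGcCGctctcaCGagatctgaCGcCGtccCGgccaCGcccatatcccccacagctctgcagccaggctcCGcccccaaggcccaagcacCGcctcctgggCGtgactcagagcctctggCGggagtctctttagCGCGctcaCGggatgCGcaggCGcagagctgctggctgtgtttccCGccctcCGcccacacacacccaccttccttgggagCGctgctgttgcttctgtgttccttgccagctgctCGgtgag
F730043M19Rik: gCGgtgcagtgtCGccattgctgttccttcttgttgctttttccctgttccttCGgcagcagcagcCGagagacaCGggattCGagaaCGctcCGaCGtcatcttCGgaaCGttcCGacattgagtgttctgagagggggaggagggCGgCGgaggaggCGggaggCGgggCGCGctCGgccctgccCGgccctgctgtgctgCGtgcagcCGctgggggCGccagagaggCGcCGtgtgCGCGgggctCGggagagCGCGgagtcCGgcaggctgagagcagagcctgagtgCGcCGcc
They hold 26 and 33 CG pairs. The median over the 11 bidirectional windows was 31 CG pairs and a GC content of 68%. The 32 processed-transcript windows had a median of 21.5 CG pairs and 62.5% GC, and all 27025 windows had 7 CG pairs and 52.7% GC.

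A protein-coding gene on the other strand started within 1000 bases of 35 member genes, 13 bidirectional and 22 processed-transcript. Of these, 13 had a partner with at least 1 tested model, and a partner's models may not hold all of its RNA. Limma called 0 of the 22 partner models and gave 8 of them an unadjusted p under 0.05, beside 2.9% and 25.9% of all 6064 models. Of the 22, 6 were positive and 16 negative, beside 58.9% negative among all models. D330041H03Rik starts 23 bases from Rnps1, a splicing-coupled RNA-binding protein gene. Rnps1 models 2 and 6 were lower by -0.57 and -0.69 on the log2 scale, and its models 1, 3 and 4 differed by -0.04, -0.14 and 0.04. On its other side D330041H03Rik shares 914 exonic bases with Abca3, a lipid transporter gene on the opposite strand. Abca3 model 2 had 4.70 and 4.15 FPKM in NEAA samples and 1.75 and 1.22 FPKM in control samples (1.13, limma adjusted p = 0.0573), opposite in sign to the lncRNA. 9230114K14Rik had 2.12 and 2.29 FPKM in NEAA samples and 1.06 and 1.07 FPKM in control samples for model 3 (0.63 ± 0.11 SE), whereas the 3 models of Dhx15, a spliceosome helicase gene 158 bases away, differed by -0.51, -0.40 and -0.18. AC132253.4 (-0.49) and its partner Incenp (0.86), a chromosomal passenger gene, also differed in sign.

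**Figure D5:**
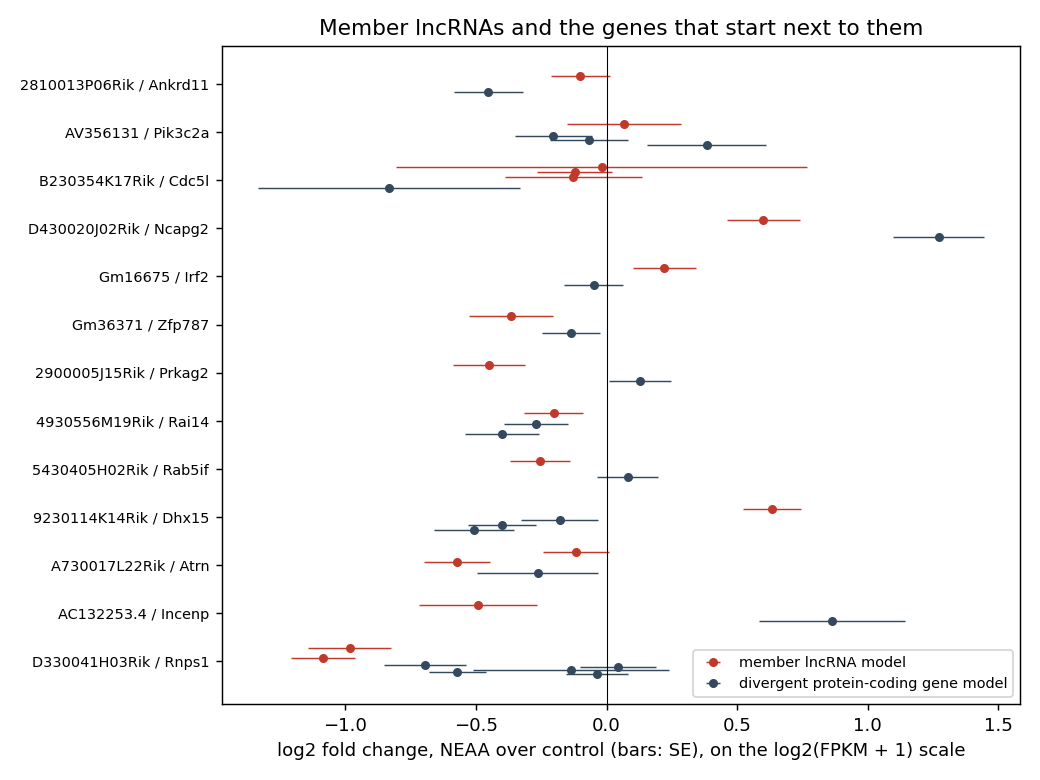
Log2 fold change, NEAA over control on the log2(FPKM + 1) scale with bars of 1 SE, of member models (red, upper) and of the tested models of the protein-coding gene that starts within 1000 bases on the other strand (dark, lower). Pairs of the same sign, such as D430020J02Rik and Ncapg2, stand beside pairs of opposite sign, such as 9230114K14Rik and Dhx15. D430020J02Rik averaged 1 FPKM only in NEAA. Models 1 and 2 of D330041H03Rik, model 2 of A730017L22Rik, 2900005J15Rik, 5430405H02Rik and Gm36371 did so only in control. All of these had to differ.

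In all, 37 member genes overlap a protein-coding gene. Gm12940 overlaps Sfpq, the gene of a paraspeckle protein, on the same strand with 216 shared exonic bases, and RefSeq lists it under Sfpq. Its model 1 had 6.87 and 9.52 FPKM in NEAA samples and 9.36 and 8.40 FPKM in control samples, and its 3 models differed by -0.12, -0.08 and 0.10 on the log2 scale, with overlapping groups for model 1. Gm12940 also shares 1709 exonic bases, 63.8% of its exonic length, with Zmym1 on the opposite strand. Without a stated strand setting, reads of Gm12940 and Zmym1 cannot be told apart there. 1810026B05Rik, named Chaserr in RefSeq, overlaps the chromatin remodeller gene Chd2, whose level it is known to restrain in mice. In GENCODE they share 2628 exonic bases on the same strand, 30.5% of the exonic length of the lncRNA, so their reads cannot be told apart there. Its models differed by 0.08 and 0.10, and the 2 tested Chd2 models by -0.23 and -0.08. CAAA01066123.1, of which 99.9% of the exonic bases lie in Rps6ka4, a kinase gene, had 18.4 and 17.7 FPKM in NEAA samples and 20.3 and 17.9 FPKM in control samples (-0.08). The 2 genes lie on the same strand, so their reads cannot be told apart there. Models 1 and 2 of Rps6ka4 averaged 0.894 and 0.163 FPKM over the samples. Firre, an X-linked RNA of nuclear architecture, had 1.94 and 2.21 FPKM in NEAA samples and 2.20 and 3.35 FPKM in control samples for model 6 (-0.28).

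Lncppara contains the miRNAs let-7b and let-7c-2, repressors of growth genes that are abundant in liver. The mature forms are shown because they share a seed, bases 2 to 8, in capitals (RefSeq, GRCm38.p6, chromosome 15, plus strand).
mmu-let-7b-5p: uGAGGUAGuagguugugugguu
mmu-let-7c-5p: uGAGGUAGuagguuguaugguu
The host's model 2 had 1.81 and 1.52 FPKM in NEAA samples and 1.19 and 1.55 FPKM in control samples (0.17 ± 0.14 SE). Its model 1 had 2.37 and 1.78 FPKM in NEAA samples and 2.21 and 0 FPKM in control samples. The groups overlapped in both models, and the miRNAs themselves were not measured here.

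Summing all models of a gene before the test called 11 of the 75 member genes, beside 10.1% of all 4700 genes tested as sums. The 4 higher genes were Gm20634, Gm43305, Gm13657 and C4a, and the 7 lower ones were D330041H03Rik, AC121821.1, 2010204K13Rik, Gm11714, F730043M19Rik, 9130230N09Rik and 4933421A08Rik. D330041H03Rik summed to 0.941 and 0.669 FPKM in NEAA samples and 4.86 and 4.58 FPKM in control samples (-1.67 ± 0.14 SE, limma adjusted p = 0.0107). AC121821.1 summed to 11.7 and 10.8 FPKM in NEAA samples and 27.2 and 31.2 FPKM in control samples (-1.30 ± 0.14 SE, limma adjusted p = 0.0163). F730043M19Rik summed to 4.17 and 3.48 FPKM in NEAA samples and 7.26 and 6.98 FPKM in control samples (-0.75 ± 0.14 SE, limma adjusted p = 0.0441), and it was the only bidirectional-promoter gene called. 9130230N09Rik, across from the glycosyltransferase gene B3gnt2, had 1.00 and 0.580 FPKM in NEAA samples and 2.21 and 2.30 FPKM in control samples. 4933421A08Rik, 121 bases from the lipid transporter gene Mfsd2a, had 0.655 and 0.588 FPKM in NEAA samples and 2.02 and 1.54 FPKM in control samples. Like D330041H03Rik, these 2 genes averaged under 1 FPKM in NEAA and passed the level filter through control alone, so they had to differ, and they were named after their values were seen. Without NEAA replicate 2, limma called 92 of 4699 genes, 3 of them members. Without NEAA replicate 1 it called 7 of 4700 genes and no member, and without either control sample it called 0 genes in all. In these 4 fits 23 to 26 member genes had an unadjusted p under 0.05, beside 22.5% to 25.6% of all genes. Among the 25 genes with several member models, all models were negative in 15, all were positive in 4 and both signs occurred in 6. The 15 included the snoRNA hosts Snhg3, Snhg15, Snhg17, 1810032O08Rik, AC121821.1, AI506816 and Cct6a. Of all 6064 models, 58.9% were negative, but that is a share of single models and gives no background for these counts of genes.

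Members clustered near the level limit, 69 of 121 averaging under 2 FPKM. Just inside it were 4930581F22Rik model 3 at a mean of 1.012 FPKM, D330041H03Rik model 1 at 1.013 FPKM and Gm20684 at 1.035 FPKM. Just outside were Gm49066 at 0.9961 FPKM, 4933421O10Rik model 1 at 0.9888 FPKM and Cct6a model 2 at 0.9689 FPKM.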

How the data were processed

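Primary mouse hepatocytes, 2 NEAA and 2 control samples, were profiled. Per the labels, libraries were made with a NEBNext Ultra RNA kit from total RNA isolated in Trizol, and the submitters' processing notes name the builds GRCm38 and mm10. The authors deposited FPKM values, with a row per transcript model under a gene identifier. Not given in the sources used here are the aligner, quantifier, annotation release and strand setting. A model could not be tied to a transcript, and its number is its order in the files. Gene types, coordinates and overlaps came from GENCODE M21 (GRCm38), and sequences and further gene types from RefSeq (GRCm38.p6).

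Values were tested as log2(FPKM + 1) against group in R 4.3.3 (limma 3.58.1, mean trend), over the 6064 models averaging 1 FPKM or more. P-values were 2-sided and adjusted by Benjamini-Hochberg over all models, with a call under 0.05. This scale understates the change of low models. The smallest p of an exact permutation test would be 0.333. The fit was tested on simulated data. Gene sums were fitted the same way, over 4700 genes. The members and lists were chosen with earlier results of these data known. Named were all bidirectional-promoter members, called models, the 10 largest differences without overlap in each direction, the 5 highest members, those beside the level limit, members of a list of known lncRNAs, and partner genes with a tested model. 9130230N09Rik and 4933421A08Rik, the snoRNA hosts outside that rule, and the other overlapping loci were named after their values were seen. Alternatives were other pseudocounts, filters and scalings, a fit without the trend, a replicate block and leaving out each sample.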

Additional observations from a re-analysis of the deposited data

How the results depend on the processing

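The counts of processed-transcript models called, 2 higher and 2 lower, depended on most settings that change the spread. Without a level filter both were 0, among 25076 models of which limma called 0 and 4000 had an unadjusted p under 0.05. Leaving out any 1 sample gave 0 to 0 for both. The lower count was 1 with a pseudocount of 0.1 and 1 with a filter of 5 FPKM. That filter left out AC121821.1 model 3 and D330041H03Rik model 2, at means of 3.70 and 1.21 FPKM, so its lower call was a different model. The lower count was 0 after rescaling sums to a fixed total with or without Gm26917 and Gm42418. This rescaling changes both the scaling and the weight of the pseudocount. Equalizing sums at their mean, which changes the scaling alone, gave 2. Deviations of same-numbered samples from their group means showed no pairing (correlation -0.00192). With 2 samples a group, both replicate numbers must give the same value, so this is a single check. A fit with the replicate block called 0 higher and 0 lower, with 1323 of 6064 models at an unadjusted p under 0.05. On gene sums the block called 185 of 4700 genes, 4 of them members, against 475 and 11 without it. The counts for bidirectional-promoter models were 0 in each direction under every setting run. Equalizing sample sums at their mean was chosen after seeing the data, and it called 4 members, or 5 with Gm26917 and Gm42418 left out of the sums.

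Most changes of sign were among models with small differences. The largest of the others were 1700007L15Rik model 1 (-0.74) and Snhg3 model 5 (-0.30). Rescaling to that total, then equalizing sums at their mean, gave these log2 differences: B230354K17Rik model 4 0.00355 and 0.013, model 3 0.048 and 0.035, and model 1 0.63 and 0.090. They were 0.056 and 0.037 for 2810013P06Rik, 0.045 and 0.033 for 4933412E12Rik, 0.057 and 0.036 for 9330151L19Rik, 0.15 and 0.090 for Gm26549, and 0.13 and 0.13 for CAAA01066123.1. They were 0.083 and 0.072 for Snhg3 model 2, 0.12 and 0.071 for Irf2 model 2, 0.016 and 0.012 for Zfp787 model 1, and 0.00594 and 0.0015 for Ube3a model 2. With Gm26917 and Gm42418 left out of the sums, the same pair of scalings gave 0.046 and 0.031 for Gm26549, 0.59 and 0.024 for B230354K17Rik model 1, 0.022 and 0.021 for CAAA01066123.1, and 0.014 and 0.00745 for Irf2 model 2. Quantile normalization gave 0.056 for CAAA01066123.1 and 0.0084 for Snhg3 model 2. Pseudocounts of 0.1 and 0.5 gave 0.39 and 0.090 for B230354K17Rik model 1. Gene sums gave 0.022 for 1700007L15Rik and 0.052 for 4933412E12Rik. Leaving out each sample in turn, the difference ranged from -0.40 to 0.14 for B230354K17Rik model 4, from -1.04 to 1.01 for its model 1, from -0.21 to 0.025 for 4933412E12Rik and from -0.20 to 0.15 for Gm26549. It ranged from -0.20 to 0.33 for AV356131, from -0.0127 to 0.21 for Gm20684, from -0.16 to 0.0085 for CAAA01066123.1, from -0.54 to 0.051 for 4930581F22Rik model 3 and from -0.74 to 0.14 for Snhg3 model 5. The cause was not tested. With 2 samples a group and no read counts, low models cannot be judged for counting error.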
